A study of Mus musculus with 9 samples.

Results

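The cytosolic ribosomal protein genes are the genes whose products, together with ribosomal RNA, build the ribosomes of the cytosol. Here they were the genes whose symbol is Rpl or Rps followed by a digit, with *Rplp0*, *Rplp1*, *Rplp2* and *Rpsa*. Ribosomal S6 kinases, *Rps19bp1* and pseudogenes were left out. In all, 81 of the 15464 genes measured met the rule, 50 of the large (60S) and 31 of the small (40S) subunit. *Rpl41*, *Rps12*, *Rps27rt*, *Rps4l* and *Rpl10l* were not analysed here.

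They were measured by RNA-seq of the striatum, from male C57BL/6J littermates aged 10 to 12 weeks, with 1 library per mouse. In the *Shank3B* line, exons of *Shank3* that code for a synaptic scaffold are targeted in the germline, so that every cell carries the change. The WT group (n = 3) had both intact alleles, the HET group (n = 3) had 1 targeted and 1 intact allele, and the KO group (n = 3) had none intact. No group received a treatment, and the study asked how *Shank3* dosage bears on striatal gene expression.

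A ribosome has a small subunit, which reads the mRNA, and a large subunit, which joins the amino acids. Most of their proteins are present in a single copy per ribosome, and cells make their mRNAs in large and similar amounts. Most of these mRNAs begin with a run of pyrimidines at the 5′ end, the terminal oligopyrimidine (TOP) motif, through which the mTORC1 kinase pathway sets how strongly they are translated. In neurons, they are also carried into dendrites and axons.

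Values are normalized counts, the estimated reads of a gene divided by a factor for each library. Their sum lay between 30830020 and 33790296, and the number of reads behind it is not known. The whole-gene sum of *Shank3*, the targeted gene, was 7209, 8812 and 6043 normalized counts in the WT libraries, 7575, 7098 and 8050 in HET and 10237, 10798 and 10578 in KO. All 3 KO libraries lay above the other 6, and since exons outside the targeted part enter this sum, it does not check the deletion. All 9 markers of medium spiny neurons, the main neurons of the striatum, were present in every library, the lowest being *Tac1* at 1390.0 normalized counts. HET replicate 3 and KO replicate 3 stood apart from the other libraries, on the leading component of all genes (33.6% of the variance) and on that of the ribosomal protein genes (63.0%). The medians of large and small subunit genes and some fold changes are given with and without them. Other values include them. These are bulk samples, in which fewer cells of a type and less RNA per cell cannot be told apart.

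The DNA around the start sites of 10 genes is printed here because their levels illustrate the pattern within genotypes described further on. Each stretch runs from 40 bases before the start site through the 10 bases transcribed at the start, 5′ to 3′ on the coding strand, from RefSeq on GRCm38.p6. For a gene with several entries, the entry with the longest run of C and T near the start site was printed. Capitals mark the longest run of C and T within 25 bases of the start site where it holds at least 8 bases, the letters of a TOP motif at or near the start. *Rpl35*, *Rps25*, *Rpl24* and *Rpl14* were low in HET replicate 3 and KO replicate 3, *Rpl10*, *Rps15a*, *Rpl37* and *Rplp2* were high in them, and *Rps6* and *Rps10* varied least within genotypes.
Rpl35 (chr2:39005122-39005171, minus strand): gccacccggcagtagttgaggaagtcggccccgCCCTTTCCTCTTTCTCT
Rps25 (chr9:44407674-44407723, plus strand): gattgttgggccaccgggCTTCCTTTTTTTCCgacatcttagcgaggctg
Rpl24 (chr16:55966235-55966284, plus strand): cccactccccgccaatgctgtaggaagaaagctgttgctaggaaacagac
Rpl14 (chr9:120571477-120571526, plus strand): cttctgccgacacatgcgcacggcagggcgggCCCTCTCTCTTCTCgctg
Rpl10 (chrX:74270776-74270825, plus strand): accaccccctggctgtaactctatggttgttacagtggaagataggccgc
Rps15a (chr7:118116138-118116187, minus strand): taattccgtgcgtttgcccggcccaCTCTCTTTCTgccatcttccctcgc
Rpl37 (chr15:5116573-5116622, plus strand): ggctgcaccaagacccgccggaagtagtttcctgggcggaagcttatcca
Rplp2 (chr7:141447611-141447660, plus strand): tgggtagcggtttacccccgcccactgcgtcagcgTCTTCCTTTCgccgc
Rps6 (chr4:86857358-86857407, minus strand): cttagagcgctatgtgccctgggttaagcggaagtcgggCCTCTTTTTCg
Rps10 (chr17:27635235-27635284, minus strand): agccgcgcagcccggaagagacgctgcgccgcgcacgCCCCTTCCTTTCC

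The run of *Rpl35* goes on past the printed stretch. Both the low and the high genes hold such runs, and *Rpl24* among the low and *Rpl10* and *Rpl37* among the high ones do not at the annotated start. RefSeq promoter entries matched 61 of the 81 genes, and 32 of them (52.5%) had a run of at least 8 C or T within 25 bases of the start site, against 22.3% of 27025 genes with an entry. A C at the start base followed by at least 4 C or T stood in 13 (21.3%) against 3.01%. The core of the binding motif of ETS transcription factors, CGGAAG or its complement CTTCCG, can also overlap a pyrimidine run. It was sought in a span of 300 bases in all that began 250 bases before the start. It lay there in 41 (67.2%), against 18.8% of all entries. Among the 11143 genes with an entry that were past the filter on low values, it did in 32.1%. A gene was counted if any of its entries held the run, the C start or the ETS core. Annotated start sites can be off by several bases, so that a missing run says only that these letters are not in the window.

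The ribosomal protein genes were among the most abundant mRNAs of the striatum. Per kb of annotated transcript, their median level was 5234 normalized counts, against 263 for all genes past the filter on low values, and 68 of the 81 ranked in the top 10% of genes. The median was 5069 per kb for large and 5613 per kb for small subunit genes. Their transcripts were short, with a median length of 827 bases against 2950.5. Of the 81 genes, 80 reached 10 normalized counts in 3 or more libraries and were tested, all but *Rpl39l*.

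**Figure D1:**
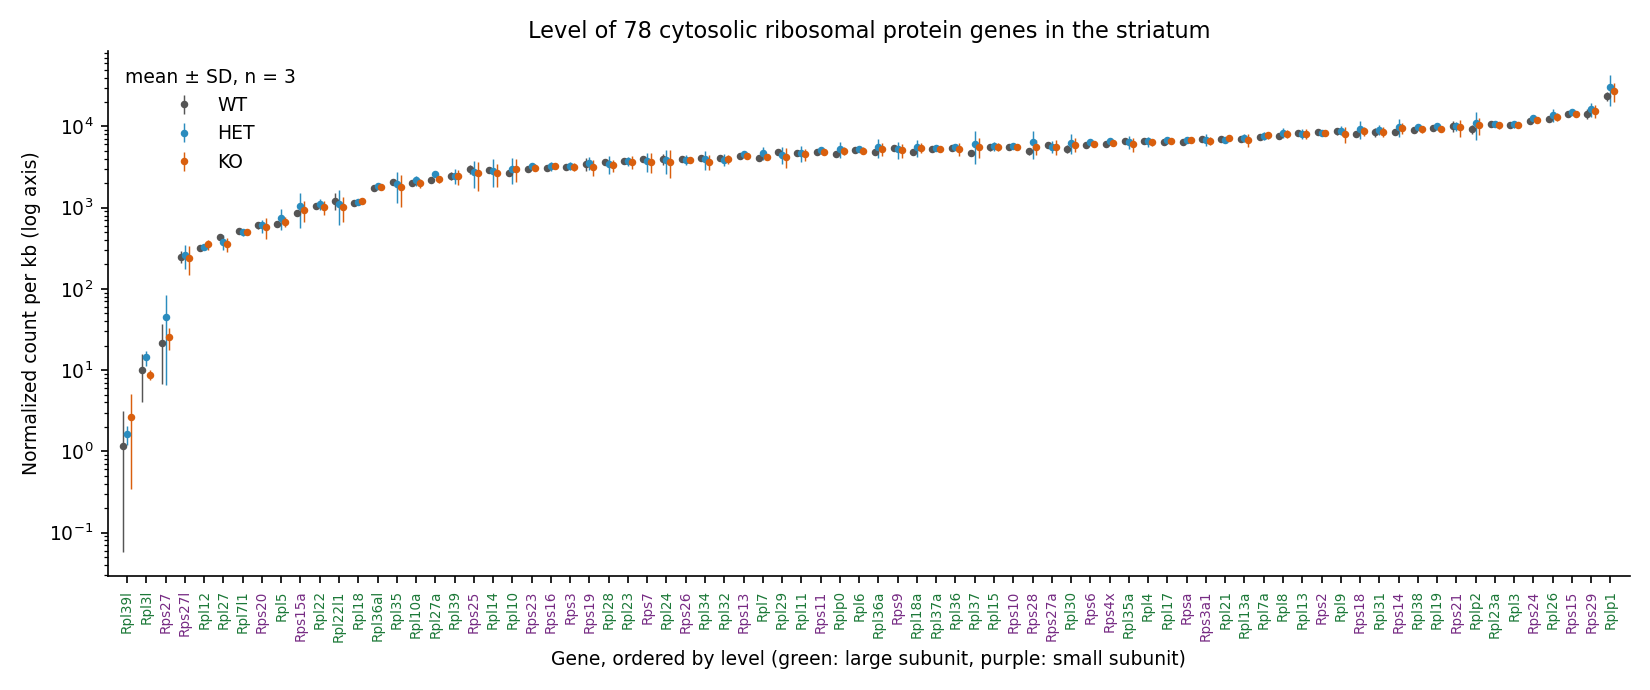
Normalized count per kb (log axis) of 78 of the 81 genes in the WT, HET and KO striatum, as the mean ± SD of 3 libraries, with genes ordered by level from left to right and a lower bar that would pass 0 cut short. Most genes lie in one band around 5234 per kb, *Rplp1* stands at the top with 27160 per kb, and *Rpl39l*, *Rpl3l* and *Rps27* fall far below the rest.

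*Rplp1*, a protein of the acidic stalk through which the large subunit recruits elongation factors, had the highest level per kb in each genotype, 23412 ± 3113 (SD, n = 3) in WT, 30736 ± 12695 in HET and 27332 ± 7352 in KO. *Rps29* and *Rps15*, both of the small subunit, followed with 15354 and 14611 per kb over the 9 libraries. By normalized count without length, the highest were *Rpl3* (14210), which lies close to the peptidyl transferase centre, *Rplp1* (13553) and *Rpsa* (11804), a small subunit protein that is also known as a laminin receptor.

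At the low end of the genes tested were *Rps27* with 10.6 normalized counts, *Rpl3l* with 13.3 and *Rps27l* with 135.0. The level of *Rps27* is uncertain, because its coding sequence is identical to that of *Rps27rt*, between which reads of the coding part cannot be told apart. *Rpl27* (389 per kb) and *Rpl12* (334 per kb) were also far below the median. Near-identical copies, at 95% identity over at least 80% of the coding sequence, were found in the annotated transcripts for 75 of the 81 genes, with a median of 5 copies and 57 for *Rpl21*. Genes with such copies, most of them pseudogenes, are uncertain to the extent that the estimation split reads between them. *Rpl3l*, *Rpl39l*, *Rpl8*, *Rps27l* and *Rps3* were among the 6 with none. A copy identical over the matched part was found for 23 genes, *Rpl27*, *Rpl12* and *Rpl27a* among them. *Rps15a* was divided by a long annotated length of 5130 bases, which lowers its level per kb.

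In each genotype, the 81 genes together held slightly more than 1% of all normalized counts. The share was 1.09%, 1.08% and 1.05% in the WT libraries, 1.10%, 1.17% and 1.14% in HET and 1.16%, 1.10% and 1.03% in KO. All 3 HET libraries lay above the 3 WT libraries, while the KO libraries overlapped with both. The means were 1.07% ± 0.020 (SD, n = 3), 1.14% ± 0.034 and 1.10% ± 0.067. As sums over chosen genes, these were not tested.

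The proportion of large to small subunit genes differed between genotypes by less than its SD. The summed count of the large over that of the small subunit genes was 1.56 ± 0.019 (SD, n = 3) in WT, 1.55 ± 0.025 in HET and 1.56 ± 0.045 in KO. The highest ratio, 1.61, was that of KO replicate 3, and the lowest, 1.52, that of KO replicate 1, so that the spread within KO covered all other libraries.

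**Figure D2:**
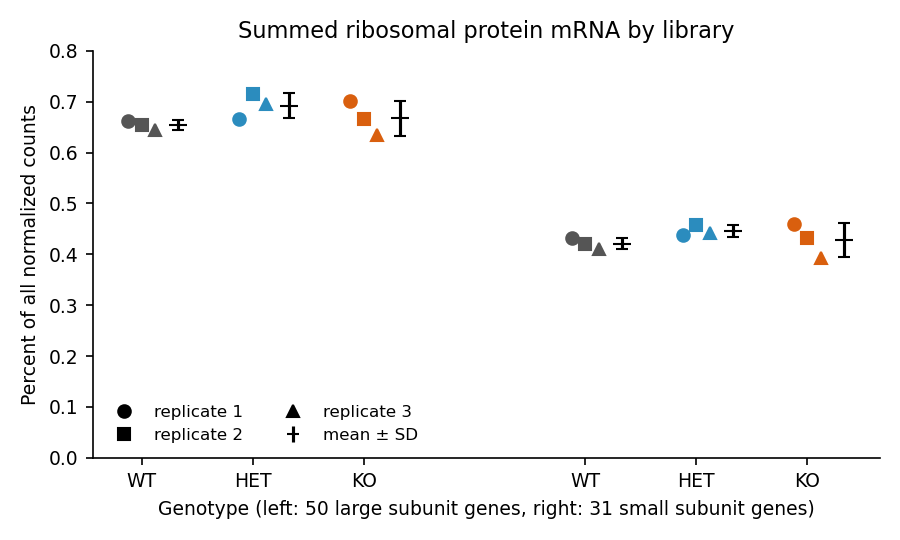
Percent of all normalized counts held by the 50 large (left) and the 31 small (right) subunit genes in each library, with circles, squares and triangles for replicates 1, 2 and 3 and the mean ± SD of 3 libraries beside them. The large subunit genes lie between 0.633% and 0.714% and the small subunit genes between 0.394% and 0.460%, and the KO libraries overlap with those of WT and HET.

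HET and WT were compared to ask whether losing 1 intact allele goes with other levels of ribosomal protein mRNA. In HET, 0 of the 80 genes tested passed an adjusted p of 0.05 (limma with Benjamini-Hochberg adjustment), as did 0% of all 14239 genes. At an unadjusted p under 0.05, 2 genes were higher, *Rpl27a* among them, against 0.604% of all genes, and 0 were lower, against 0.506%. The log2 fold change was above 0 for 55 of the 80 genes, against 49.3% of all genes. Its median was 0.039 for large and 0.077 for small subunit genes. The median standard error of a single gene was 0.14, larger than either, but it does not measure the error of these medians. Without HET replicate 3 and KO replicate 3 the medians were 0.050 and 0.049. The study's own count test called genes in both HET and KO, *Shank3* among those in KO. In the limma fit, *Shank3* in KO had a log2 fold change of 0.54 (standard error 0.13, Benjamini-Hochberg adjusted p = 0.999). The 0 adjusted calls in HET and KO therefore do not show that no gene changed.

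*Rpl27a*, of the large subunit, had 2743, 2556 and 2406 normalized counts in WT, 2908, 2985 and 3011 in HET and 2853, 2494 and 2376 in KO. The HET libraries lay close together above all WT and all KO libraries, and WT and KO overlapped. Its log2 fold change in HET was 0.21 (standard error 0.094, limma, Benjamini-Hochberg adjusted p = 0.999). Without HET replicate 3 and KO replicate 3 it was 0.20, so that those libraries did not carry it. In KO against HET the log2 fold change of *Rpl27a* was −0.21, and −0.14 without those libraries. *Rpl38*, of the large subunit, also had HET libraries that all exceeded the WT libraries, at 3572, 3434 and 3741 against 3386, 3301 and 3150 normalized counts. Separation of this kind upward was seen in 3 of the 80 genes and in 2.25% of all genes. Downward, 0 of the 80 genes and 2.19% of all genes separated.

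KO and WT were compared to ask the same of losing both alleles. In KO, 0 of the 80 genes passed the adjusted threshold, and 0 of them had an unadjusted p under 0.05 in limma (all genes: 0% adjusted, and 0.386% higher and 0.435% lower unadjusted). The log2 fold change was above 0 for 39 of the 80, near the 51.6% of all genes. The medians were −0.0097 for large and 0.0028 for small subunit genes, and 0 of the 80 were past 1.5-fold. Without HET replicate 3 and KO replicate 3 the medians were 0.024 and 0.045, so that the large subunit median changed sign. Both comparisons use the same 3 WT libraries.

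*Rpl27*, of the large subunit, was the gene with the smallest p, and the sole one whose KO and WT libraries did not overlap, where 2.51% of all genes separated downward and 2.02% upward. It had 294, 295 and 292 normalized counts in WT, 227, 313 and 223 in HET and 261, 270.0 and 182 in KO. Its WT libraries were within 3 counts of each other and each KO library lay below them, with KO replicate 3 the lowest. The log2 fold change of −0.33 (standard error 0.19, limma, Benjamini-Hochberg adjusted p = 0.999) was −0.14 without KO replicate 3. *Rps6*, the small subunit protein that S6 kinases phosphorylate, had 5394, 5130.4 and 4937 normalized counts in WT, 5363, 5795 and 5609 in HET and 5498, 5218 and 5431 in KO. Its groups overlapped, with log2 fold changes of 0.12 in HET and 0.06 in KO (standard error 0.079 for both). Among the genes, it varied least within genotypes.

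KO against HET compares the groups with 0 and 1 intact allele. Here, 0 of 80 genes passed the adjusted threshold in limma, as did 0% of all genes. This fit did not pair libraries by number. At an unadjusted p under 0.05, 2 genes were lower, *Rpl27a* among them, against 0.562% of all genes, and 0 were higher, against 0.744%. The log2 fold change was above 0 for 10 of the 80 genes, against 49.6% of all genes, with a median of −0.071 for large and −0.072 for small subunit genes. Without HET replicate 3 and KO replicate 3 these medians were −0.024 and −0.025. KO replicate 3 had the lowest share of ribosomal protein mRNA of all libraries.

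*Rpl27a* and *Rpl3l* were the genes whose KO libraries all lay below the HET libraries, a separation seen in 2.19% of all genes, and 0 of the 80 lay above, as 2.25% of all genes did.

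**Figure D3:**
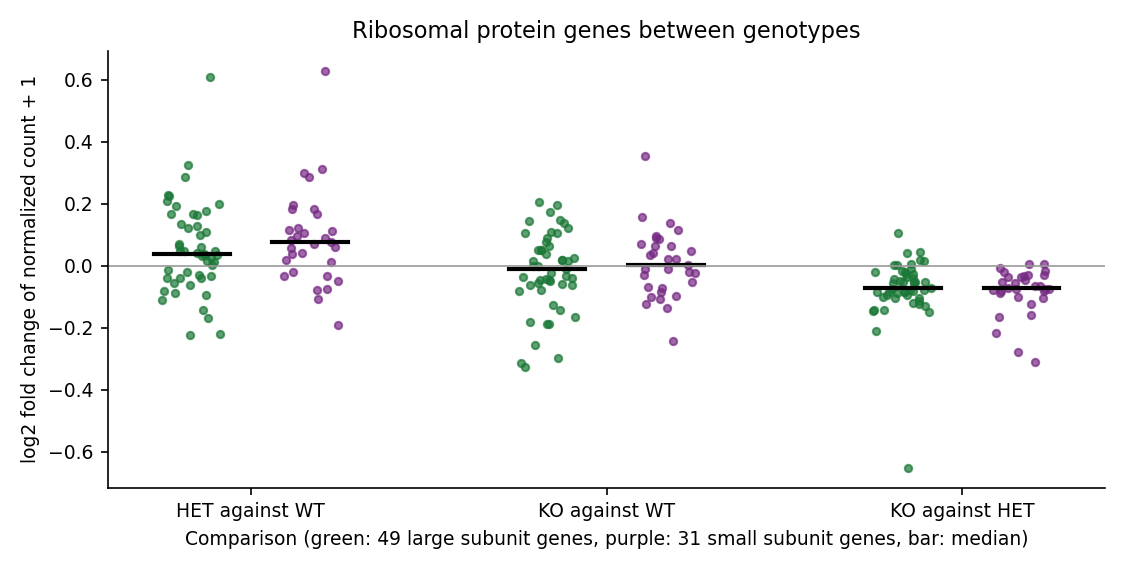
The log2 fold change (normalized count + 1) of the 49 large and 31 small subunit genes tested, in HET against WT, KO against WT and KO against HET, 1 point per gene with a bar at the median. The medians are 0.039 and 0.077, −0.0097 and 0.0028, and −0.071 and −0.072, and most single genes lie within 0.33 of 0.

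Genes of the acidic stalk, which contacts the elongation factors, were high in replicate 3 of HET and KO. *Rplp0*, the base of the stalk, had 5792, 6559.5 and 6414 normalized counts in WT, 5972, 6551 and 8985 in HET and 6221, 6407 and 7604.5 in KO. *Rplp1* had 11824, 13161 and 10063 in WT, 11686, 11673 and 22652 in HET and 13045, 10303 and 17568 in KO. *Rplp2* had 3618, 4614 and 4127 in WT, 3473, 4296 and 6999 in HET and 3826, 4122 and 5919 in KO. For all of these stalk genes, replicate 3 was the highest library of HET and of KO. Replicates 1 and 2 lay within the WT range, except HET replicate 1 for *Rplp2*, just below it. The log2 fold changes in HET were 0.18, 0.33 and 0.20 and in KO 0.10, 0.20 and 0.15, with adjusted p = 0.999 for each in limma with Benjamini-Hochberg adjustment. Without HET replicate 3 and KO replicate 3 they were 0.0020, 0.0083 and −0.086 in HET and 0.015, −0.0024 and −0.046 in KO.

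*Rpl5* and *Rpl11* bind the 5S ribosomal RNA and can restrain the p53 inhibitor Mdm2. *Rpl5* had 1338, 1193 and 1279 normalized counts in WT, 1349, 1194 and 2034 in HET and 1324, 1201 and 1603 in KO. *Rpl11* had 3998, 4021 and 3790.1 in WT, 4053, 4658 and 2980.3 in HET and 4183, 4090 and 3024 in KO. These partners went opposite ways in replicate 3, *Rpl5* being highest and *Rpl11* lowest there in both HET and KO. *Rpl13a*, which can leave the ribosome to silence mRNAs, had 7718, 7386 and 7038 in WT, 7401, 8507 and 6789 in HET and 8222, 7406 and 5784 in KO. *Rps27a*, made as a fusion with ubiquitin, had 4514, 4089 and 3977 in WT, 4363, 4409 and 3238 in HET and 4656, 4258 and 3032 in KO. *Rpl13a* and *Rps27a* were lowest in replicate 3 of each genotype. *Rpsa* had 10792, 12398 and 11228 in WT, 11109, 12530.0 and 12196 in HET and 11852, 12554 and 11572 in KO, with overlap of all groups.

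Some of these genes have a paralog that replaces them in other tissues. *Rpl3l*, the form of skeletal muscle and heart, had 8.2, 20.1 and 7.6 normalized counts in WT, 21.4, 15.7 and 14.7 in HET and 12.0, 10.2 and 9.4 in KO. HET and KO did not overlap (two-sided exact permutation p = 0.1, the smallest possible), while WT overlapped with both. Its log2 fold change in KO against HET was −0.65 (standard error 0.40, limma, Benjamini-Hochberg adjusted p = 1.0) at a level where a few reads decide the value. Per kb, *Rpl3* stood 1247-fold ± 513 (SD, n = 3) above it in WT. *Rpl39l*, known from the testis, stood between 0 and 2.9 normalized counts in the 9 libraries and was listed at 0 in 3 of them.

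*Rpl7* and its paralog *Rpl7l1* differed 8.02-fold ± 0.45 (SD, n = 3) per kb in WT, 9.67-fold ± 2.77 in HET and 8.46-fold ± 0.69 in KO. *Rpl36a* and *Rpl36al* differed 2.75-fold ± 0.022 in WT, 3.00-fold ± 0.84 in HET and 2.93-fold ± 0.28 in KO. *Rpl22*, which also binds RNA outside the ribosome, and *Rpl22l1* were the pair of nearly equal level, at 0.890 ± 0.15 in WT, 1.13 ± 0.49 in HET and 1.03 ± 0.15 in KO. HET replicate 3 had the highest ratio of all libraries in each of these pairs, at 12.8, 3.97 and 1.697. For *Rpl36a* and *Rpl36al*, HET replicates 1 and 2, at 2.47 and 2.58, lay below all WT libraries. They lay within the WT range for *Rpl22* and *Rpl22l1*, and on either side of it for *Rpl7* and *Rpl7l1*. *Rpl22l1* had 822, 610 and 529 normalized counts in WT, 778, 753 and 286 in HET and 736, 527 and 367 in KO, the lowest in replicate 3 of each genotype. *Rps27* had 3.0, 13.2 and 6.4 normalized counts in WT, 2.1, 28.7 and 15.9 in HET and 6.5, 8.2 and 11.6 in KO, the widest relative spread within genotypes of all the genes. The SDs of the genotypes overlapped for each of these ratios.

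Within genotypes, HET replicate 3 and KO replicate 3 deviated most, and part of the genes deviated in both. The median SD of a gene within genotypes was 0.19 on the log2 scale, and it ranged from 0.054 for *Rps6* to 1.14 for *Rps27*. Each library was set against the other 2 of its genotype, as the difference in log2(normalized count + 1). In HET replicate 3, 27 of the 80 genes deviated by more than 0.5 (19.9% of all genes), and in KO replicate 3, 21 did (19% of all genes). In WT replicates 1, 2 and 3 it was 3, 2 and 1 of the 80 genes (8.48%, 7.43% and 10.1% of all genes). In HET replicates 1 and 2 it was 5 and 11 (12.1% and 11.4%), and in KO replicates 1 and 2 it was 8 and 6 (9.57% and 9.54%). Both libraries lay more than 0.5 below their genotype for 9 genes (4.23% of all genes), 5 large and 4 small subunit genes. They lay more than 0.5 above for 6 (4.31% of all genes), 4 large and 2 small. In opposite directions, 0 of the 80 genes and 156 of all 14239 genes were past 0.5.

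The genes described next were chosen after their values were seen. *Rpl35*, which sits at the exit of the nascent chain tunnel, had 2126, 1782 and 1928 normalized counts in WT, 2085, 2464 and 999 in HET and 2097, 2089.8 and 866 in KO. *Rps25*, needed for some forms of initiation at internal sites, had 3117, 2493 and 2645 in WT, 2904, 3232 and 1474 in HET and 3118, 2922 and 1361 in KO. *Rpl24*, which bridges the subunits, had 3166, 2399 and 2547 in WT, 3080, 3202 and 1640 in HET and 3215, 2854 and 1424 in KO. In each of these genes, replicate 3 of HET and of KO fell below all 7 other libraries, and replicates 1 and 2 lay above WT replicates 2 and 3. *Rpl14*, *Rpl22l1*, *Rpl29*, *Rps7*, *Rps27l* and *Rps9* were the other genes low in both.

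*Rps15a*, of the small subunit, had 4551, 4528 and 4175 normalized counts in WT, 3931, 3993 and 8243 in HET and 4681, 3540.2 and 6345 in KO. *Rpl37* had 3927, 4340.0 and 3660.5 in WT, 3865, 3820.3 and 7653 in HET and 4228, 3711 and 6096 in KO. *Rpl10*, which completes the maturation of the large subunit, had 2087, 2161 and 2308 in WT, 2247, 1752 and 3505 in HET and 2287, 1809.8 and 3361 in KO. For each, replicate 3 of HET and of KO was above all 7 other libraries. *Rplp1*, *Rplp2* and the uncertain *Rps27* completed the genes high in both. *Rps27* was near the floor, and its HET replicate 3 (15.9) lay below HET replicate 2 (28.7), with HET replicate 1 at 2.1. *Rps6* and *Rps10* stayed close to their genotype, with deviations of 0.0087 and −0.052 in HET replicate 3 and 0.020 and −0.066 in KO replicate 3.

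**Figure D4:**
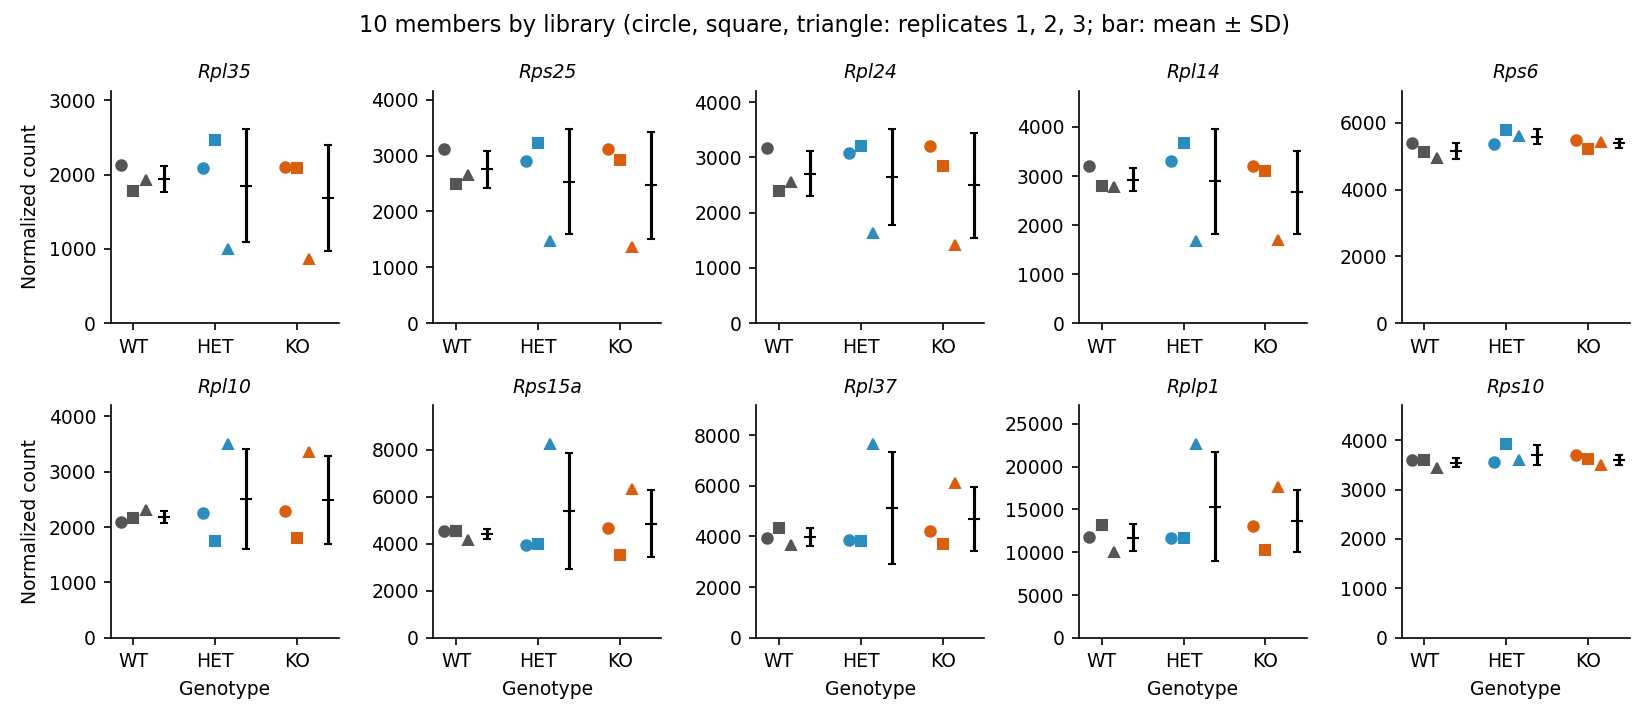
Normalized counts of 10 genes in each library, with circles, squares and triangles for replicates 1, 2 and 3 and the mean ± SD of 3 libraries beside them, on axes that start at 0. *Rpl35*, *Rps25*, *Rpl24* and *Rpl14* are low and *Rpl10*, *Rps15a*, *Rpl37* and *Rplp1* high in replicate 3 of HET and KO but not of WT, while *Rps6* and *Rps10* are level.

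Across the 80 genes, the deviations of HET replicate 3 and KO replicate 3, which share no library, had a Pearson r of 0.941 and a Spearman rho of 0.940, against an r of 0.506 over all 14239 genes. The points are genes of the same pair of libraries and not independent. For replicates 1 and 2 of HET and KO, r was 0.783 and 0.700 with *Rps27* and 0.888 and 0.887 without it. The 3 deviations within a genotype depend on each other, so these are not separate observations. The WT libraries differed by number. WT replicate 3 had an r of 0.063 to HET replicate 3 and 0.069 to KO replicate 3. Without *Rps27*, WT replicate 1 had an r of 0.606 to HET replicate 1 and 0.743 to KO replicate 1, and WT replicate 2 had an r of −0.415 and −0.322 to HET and KO replicate 2. *Rps27* aside, the leading component held 73.6% of the variance of the ribosomal protein genes.

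**Figure D5:**
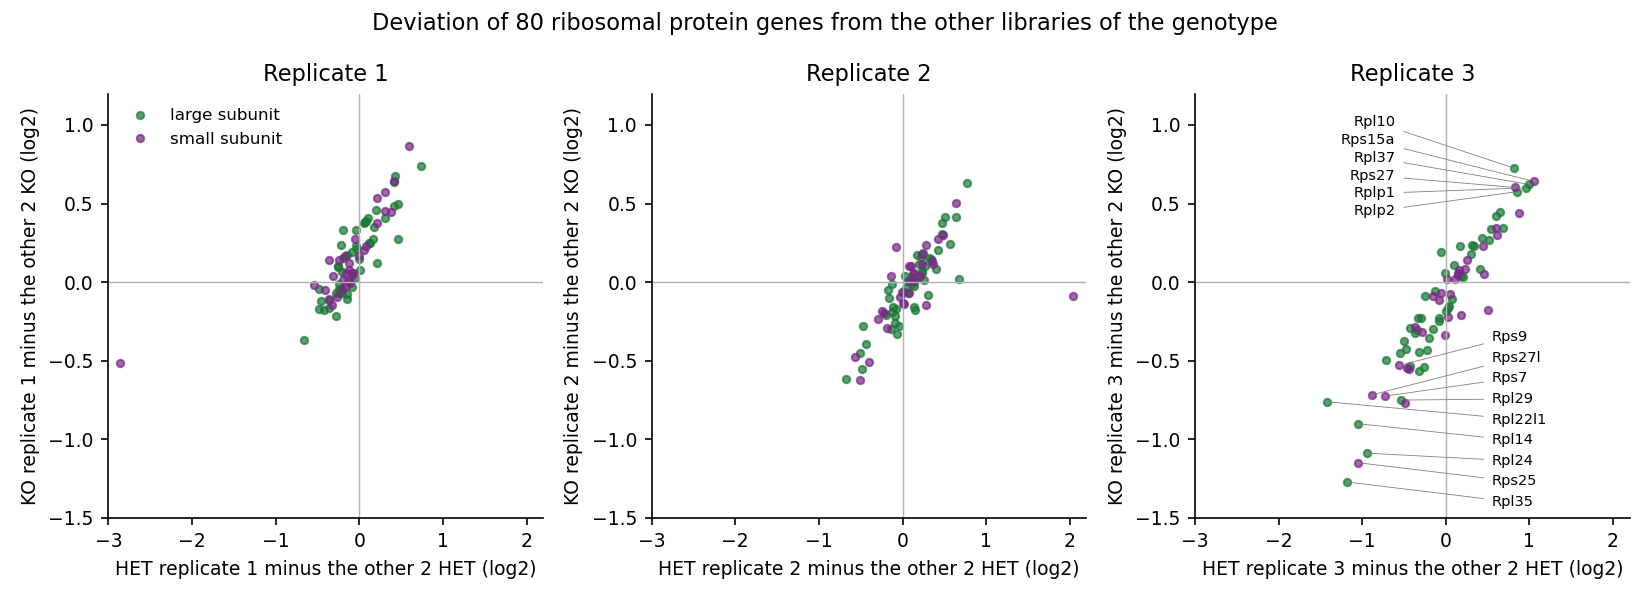
Deviation of each of the 80 genes tested from the other 2 libraries of its genotype on the log2 scale, HET on the horizontal and KO on the vertical axis, with 1 panel for each replicate number and green for large, purple for small subunit genes. Points lie along a rising line in every panel, most widely in replicate 3 (r = 0.941), where the 15 genes past 0.5 in both libraries are named. The lone point far to the left and right in the panels of replicates 1 and 2 is *Rps27*.

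Large and small subunit genes were found on both sides of this pattern. The Spearman rho of the deviation over the 80 genes was 0.0081 with GC content, −0.11 with transcript length, −0.090 with the number of exons and 0.12 with the number of near-identical copies in HET replicate 3. In KO replicate 3 the same values were 0.059, −0.076, −0.11 and 0.069. With the mean level it was 0.30 and 0.28. Medium spiny neuron markers (9 of 9 measured, none at 0) summed to between 74906 and 149126 normalized counts in WT, 103208 and 132488 in HET and 65471 and 110720.0 in KO. KO replicate 3 had the lowest sum and WT replicate 3, at 74906, the next lowest. HET replicate 3, at 112799, lay between its group's other libraries. Oligodendrocyte markers (8 of 8, none at 0) ranged from 161918 to 267345 in WT, 229252 to 257435 in HET and 139113 to 249198 in KO. KO replicate 3 was again the lowest, WT replicate 3 was the highest of all libraries, and HET replicate 3 was at 248006. Astrocyte markers (8 of 8, none at 0) summed to 132648 to 158071 in WT, 142026 to 163828 in HET and 138329 to 159269 in KO, and microglia markers (9 of 9, none at 0) to 13077 to 14259, 13482 to 15086 and 12869 to 14295. Replicate 3 was the highest library for astrocyte and the lowest for microglia markers in HET and KO, and in WT as well. Cortical neuron markers (8 of 8, none at 0) summed to 44829 to 59076 in WT, 40981 to 55531 in HET and 45804 to 66526 in KO. KO replicate 3 was the highest of all libraries for them, WT replicate 3 the highest of WT. HET replicate 3, at 52568, lay between its group's other libraries. Choroid plexus, vessel and blood markers are not described here. The part of cell makeup in the pattern was not tested.

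Among proteins of the ribosome that carry other names, *Rack1* and *Fau* also deviated in these libraries. *Rack1*, a scaffold on the small subunit, had 5317, 6241 and 5364 in WT, 5421, 5497 and 9820.5 in HET and 5763, 5084 and 8322 in KO. *Fau*, which codes for a ubiquitin-like protein fused to a small subunit protein, had 743, 766 and 718 in WT, 779, 850.3 and 608 in HET and 929, 781 and 528 in KO. *Rack1* was highest and *Fau* lowest in replicate 3 of HET and KO. Their log2 fold changes against WT changed sign without those libraries in both genotypes. In HET, *Rack1* went from 0.24 to −0.04 and *Fau* from −0.0067 to 0.13.

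The wider translation machinery gave no adjusted call either. In HET and in KO, 0 of 8 elongation factors, 0 of 34 initiation factors, 0 of 17 other TOP mRNAs, 0 of 45 ribosome assembly genes, 0 of 10 regulators of TOP mRNA translation and 0 of 78 mitochondrial ribosomal protein genes passed the adjusted threshold in limma. At an unadjusted p under 0.05, the sole call against WT was *Nop2*, an enzyme that methylates the large ribosomal RNA, which had 749, 668 and 721 normalized counts in WT and 561, 660 and 601 in HET. Over all genes, 0.506% were called lower. Its libraries did not overlap, as for 2.19% of all genes downward, and its log2 fold change was −0.23 (standard error 0.10, limma, Benjamini-Hochberg adjusted p = 0.999). The median log2 fold change of the elongation factors was 0.11 in HET, with 8 of 8 above 0, and 0.064 in KO, with 6 of 8 above 0. That of the mitochondrial ribosomal proteins, a separate set from the cytosolic one, was −0.020 in HET and −0.060 in KO, with 28 and 23 of 78 above 0, where 49.3% and 51.6% of all genes were. The medians of these lists include HET replicate 3 and KO replicate 3. In KO against HET, *Mrpl23*, of the mitochondrial large subunit, had 114, 122 and 132 normalized counts in HET and 146, 159 and 188 in KO, with a log2 fold change of 0.41 (standard error 0.15, limma, Benjamini-Hochberg adjusted p = 1.0).

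The ribosomal protein genes lie on 19 chromosomes, with 14 on chromosome 7 and 4 on X (*Rpl10*, *Rpl36a*, *Rpl39* and *Rps4x*). *Rpl3*, *Rpl8*, *Rpl30* and *Rpl37* lie on chromosome 15, as *Shank3* does, at distances of 9.41, 12.6, 55.1 and 84.4 Mb. Their log2 fold changes in KO were 0.02, 0.07, 0.17 and 0.21, none larger than its standard error, and the KO and WT libraries of all 4 overlapped. Without HET replicate 3 and KO replicate 3 they were 0.0072, −0.012, 0.024 and −0.0017.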

How the data were processed

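Striatal RNA of 3 WT, 3 HET and 3 KO mice was measured as stranded, paired-end mRNA-seq. The authors made the deposited signal values, normalized counts per gene, by estimating transcript abundance with Salmon 0.9.1 on GRCm38 with a GC bias correction, summing per gene with tximport in R 3.6.0 and dividing by DESeq2 1.19.11 size factors. Whole reads were not recovered from the low values, so depth is unknown and no counting interval is given. The count test planned for counts was not used. All 9 columns were matched to samples by name, and 0 columns were unused.

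Genes at 10 or more in 3 or more libraries (14239) were fitted as log2(normalized count + 1) with limma 3.58.1 (trend) in R 4.3.3, with all genotypes together and no covariate. Benjamini-Hochberg adjustment ran over all of them, with a threshold of 0.05. Fold changes on this scale understate the change of low genes. Single genes were also tested with two-sided exact permutation tests. Nothing in the labels says more of the replicates than 1 mouse each. No pair of libraries shared a nonzero value at any gene. Lengths were medians over GENCODE M21 coding transcripts, near-identical copies were found with BLAST 2.17.0, and figures were drawn with matplotlib 3.10.9. The script was tested on simulated data.

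The members and lists were chosen with earlier results of these data known. Genes named were the paralogs and members with a named role, per comparison the 4 large and 3 small subunit genes with the smallest p, the 3 highest, 3 lowest and 3 most variable, per other list the gene with the smallest p, *Fau*, *Rack1* and *Shank3*, and any others were chosen after their values were seen. Over all genes, deviations from the genotype mean had an r of 0.515, 0.281 and 0.506 between HET and KO libraries of equal number. The 3 deviations within a genotype depend on each other, and libraries of unequal number were not compared. The main fit did not use such pairs, so its KO against HET tests were unpaired, and the replicate block was an alternative. Between WT and HET libraries of equal number r was 0.319, −0.014 and 0.0054, and between WT and KO it was 0.243, −0.221 and 0.024. Replicate 1 of WT thus had a positive r with both, while replicates 2 and 3 had an r of 0.024 or less. What the numbers stand for is not given in the sources used here. Alternatives were other filters, pseudocounts, normalizations and variance priors, fits limited to the genotypes in question, a replicate block, and leaving out libraries. Values of 4 genes that the rule or a list names are not reported here. Single exons and transgenic libraries were not analysed here.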

Additional observations from a re-analysis of the deposited data

How the results depend on the processing

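The count of 0 ribosomal protein genes past the adjusted threshold held in each comparison under every alternative, among them no filter, a filter of 50, pseudocounts of 0.5 and 10, a trimmed mean of M values, quantile normalization, other variance priors, fits limited to the genotypes in question, and the removal of each library in turn. Under the replicate block, 1 gene instead of 2 had an unadjusted p under 0.05 in KO against HET, and 2 did with the HET and KO libraries alone. The block changed no adjusted call. These unadjusted counts ranged from 0 to 4 in HET against WT and from 0 to 1 in KO against HET when a library was left out. The median log2 fold change of the large subunit genes in HET lay between 0.0013 without HET replicate 2 and 0.090 without HET replicate 1. In KO against WT it lay between −0.063 without KO replicate 1 and 0.024 without KO replicate 3. Some single genes changed sign when a library was left out. In HET against WT, *Rack1* ranged from −0.043 without HET replicate 3 to 0.39, *Fau* from −0.11 to 0.13 without HET replicate 3 and *Shank3* from −0.075 without WT replicate 3 to 0.20. *Fau* was also at 0.0061 under quantile normalization. In KO against WT without KO replicate 3, *Rps25* was at 0.14, *Rack1* −0.055, *Fau* 0.20, *Eef1e1* −0.0070 and *Rptor* −0.0022. With all libraries they were at −0.24, 0.15, −0.031, 0.093 and 0.16. Leaving out other libraries moved them as far as −0.46, 0.30, −0.21, 0.16 and 0.26. In KO against HET, *Rack1* ranged from −0.29 to 0.19 and *Fau* from −0.20 to 0.21. Leaving out HET replicate 3 and KO replicate 3 together, an alternative chosen after seeing the data, gave the same values against WT, and 0.065 for *Fau* in KO against HET. The cause was not tested. With 3 mice a group and a median standard error of 0.14, changes of the size of the medians were not detectable in single genes.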
